A study of Mus musculus with 24 samples.

Results

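Brown fat burns fuel for heat, and a small set of genes carries that capacity. Of the 7 genes named for it here (Ucp1, Ucp2, Ucp3, Cidea, Ppargc1a, Dio2 and Adrb3), 5 had at least 1 probe set annotated to that symbol alone. They gave 6 of the 12488 probe sets on the array: 99507_at and 161422_f_at for Ucp1, 93392_at for Ucp3, 99994_at for Cidea, 102240_at for Ppargc1a and 103438_at for Dio2. Ucp2 and Adrb3 were not analysed here. All probe sets of a member were kept, dim ones included. For Ucp1, correlations and values by run of arrays are given for 99507_at only, the brighter of its pair, a choice made after its values were seen.

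The study measured RNA in fat cells grown in primary culture from mouse brown or white fat, on 24 Affymetrix U74Av2 arrays, 1 per sample. There were 5 arrays of brown cells at day 7, 5 of brown cells at day 4, 6 of white cells at day 7 and 8 of white cells at day 4. The labels call day 7 cells differentiated and day 4 cells non differentiated, count days from the isolation of the cells, and give no strain, age, genotype or added agent. Each array is called here by its label's number. Whether the replicates were different animals or cultures is not stated, so a p-value speaks only of the spread between the arrays at hand, which may be technical.

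In a brown fat cell, cold reaches the cell as noradrenaline at beta-adrenergic receptors, among them the beta 3 receptor encoded by Adrb3, and cAMP rises inside. That signal raises Ppargc1a, a coactivator of mitochondrial genes, and Dio2, which turns thyroxine into active thyroid hormone, and both help to switch on Ucp1. Ucp1 lets protons back across the inner mitochondrial membrane so that respiration makes heat in place of ATP. Ucp2 and Ucp3 are related carriers for which heat is not the settled role, and Cidea, a lipid droplet protein of the CIDE family, is abundant in mouse brown fat.

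The start regions of the 3 genes of this circuit that are known to answer to cAMP in brown fat are shown, each the 250 bases before the start that RefSeq's table on GRCm38.p6 gives for the gene. For Ppargc1a that start lies inside the annotated gene (chr5:51454249-52115853, minus strand), not at its outer end, so that other starts of the gene lie upstream of it. Capitals mark cAMP response element letters, whole (TGACGTCA) or its core (TGACG, or CGTCA on the other strand, which the whole one contains), and TATA letters (TATAAA or TATATA).
Ucp1 (chr8:83290098-83290347, plus strand): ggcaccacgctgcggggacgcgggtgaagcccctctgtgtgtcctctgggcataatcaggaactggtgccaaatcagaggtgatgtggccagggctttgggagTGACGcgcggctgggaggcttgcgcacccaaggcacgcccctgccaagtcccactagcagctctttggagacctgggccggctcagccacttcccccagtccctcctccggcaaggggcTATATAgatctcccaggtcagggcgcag
Ppargc1a (chr5:51567726-51567975, minus strand): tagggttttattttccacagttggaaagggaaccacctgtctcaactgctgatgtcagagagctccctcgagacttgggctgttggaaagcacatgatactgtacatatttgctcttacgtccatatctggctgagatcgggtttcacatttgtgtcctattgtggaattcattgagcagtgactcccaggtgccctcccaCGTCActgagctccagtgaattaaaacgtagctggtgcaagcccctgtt
Dio2 (chr12:90739039-90739288, minus strand): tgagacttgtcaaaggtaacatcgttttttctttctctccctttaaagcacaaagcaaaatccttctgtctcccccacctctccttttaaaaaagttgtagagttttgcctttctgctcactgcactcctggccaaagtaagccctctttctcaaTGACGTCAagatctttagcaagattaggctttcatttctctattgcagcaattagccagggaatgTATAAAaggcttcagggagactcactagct
Dio2 held the whole element 95 bases before the start and a TATA box at 30 bases. Ucp1 held a core at 147 bases and TATATA at 28 bases, and Ppargc1a held a core at 49 bases. Searched on both strands, the whole element stood in 1.55% of 32851 windows of this length, the core in 17.8%, TATAAA in 12.4% and TATATA in 5.25%. Of the members, 5 had a window in the table. Among those not printed, the Ucp2 window also held a core, at 62 bases, and the Ucp3 window held none of these letters. These letters are a description and not a sign that a factor bound there.

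Only 2 of the 6 member probe sets were bright enough for the filtered fit, which asked for a signal above the array's own 40th percentile on at least 5 arrays. That percentile lay between 23.8 and 35.8 across arrays. Cidea passed on 11 arrays, the 10 brown arrays and white array 38, and Ucp3 on 14. Cidea thus entered through the groups in which it was high, and the count of members called carries no weight of its own. Ucp1 (99507_at) passed on 4 arrays, 1 short of the filter, so that the filtered fit did not test it and its differences come from an alternative fit without the filter. Ucp1 (161422_f_at) was above that level on 1 array, and Ppargc1a and Dio2 on 0 arrays. Signals under 8.21 were set to that floor before log2 was taken, and each array was scaled to a trimmed mean of 150. Differences were tested with limma on log2 signals, and adjusted p is the Benjamini-Hochberg value over all probe sets of the fit, 8397 with the filter and 12422 without it.

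**Figure D1:**
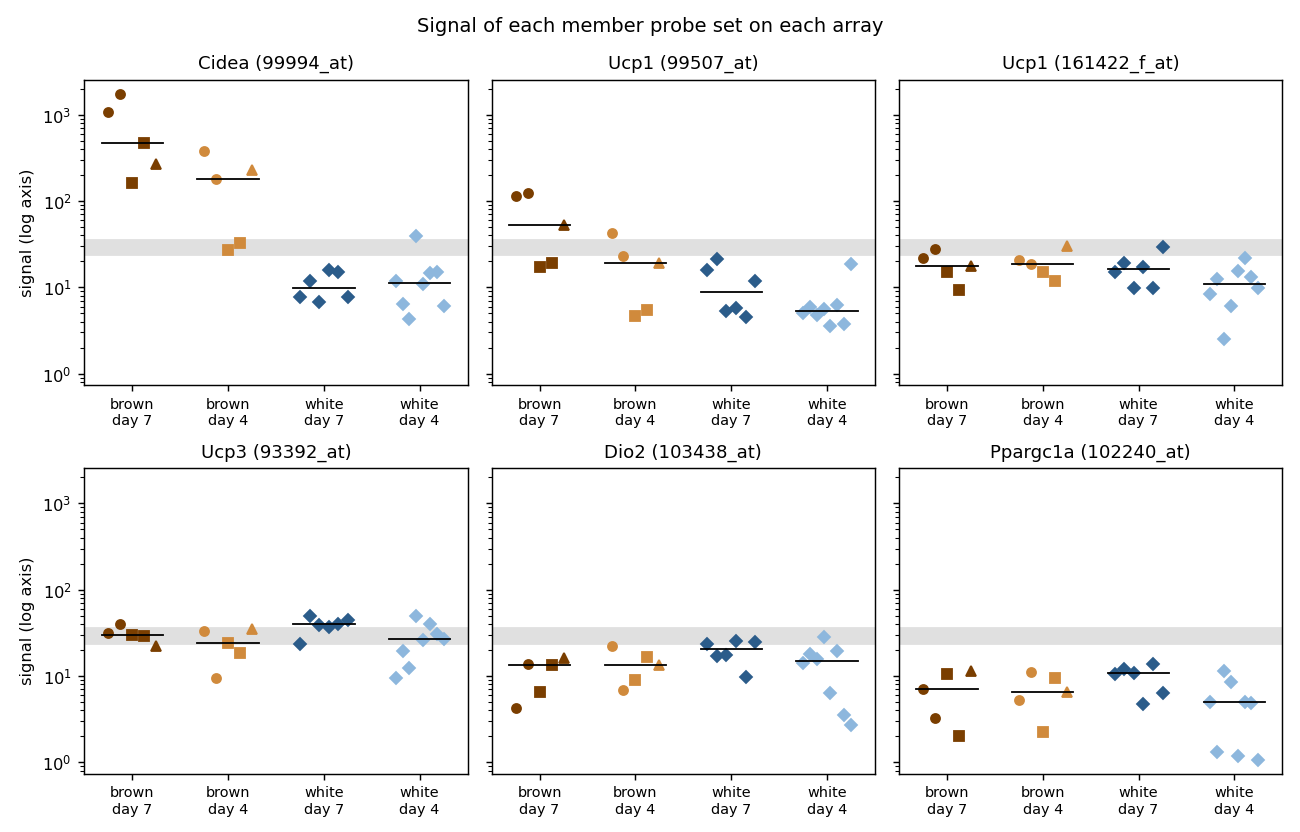
Signal (log axis) of the 6 member probe sets on each array, by group, with the group median as a black line and the range of the arrays' own 40th percentiles in grey. Brown arrays 05 to 08 are circles, 09 to 12 squares, 19 and 22 triangles, and white arrays diamonds. Cidea lies above the grey band on the 5 brown day 7 arrays, and Ppargc1a lies under it on all 24 arrays.

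Cidea showed the widest separation of the members that passed the filter. On brown day 7 arrays its signal was 1083 (07), 1754 (08), 159.6 (11), 472 (12) and 268 (22). On brown day 4 arrays it was 378 (05), 182 (06), 27.3 (09), 32.6 (10) and 226 (19). On white day 7 arrays it ran from 6.78 to 15.8 with a median of 9.71, and on white day 4 arrays from 4.29 to 39.8 with a median of 11.3. Every brown day 7 array lay above every white array, whereas the brown groups overlapped each other and brown day 4 overlapped white day 4 through white array 38.

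At day 7, Cidea was 5.60 ± 0.60 log2 units higher in brown than in white cells (48.4-fold, SE of the fit, limma, adjusted p = 1.55e-07). It was 1 of the 2 tested member probe sets called in that comparison, in which 25.2% of all 8397 were called, 12.8% higher. The arrays of both cell types did not overlap, as was so, with brown higher, for 8.71% of all probe sets tested. At day 4, Cidea was 3.09 ± 0.57 higher in brown cells (8.51-fold, limma adjusted p = 0.00027), again 1 of 2 member probe sets called, against 23.0% of all. Of the white arrays, 3 of 6 at day 7 and 3 of 8 at day 4 were at the floor, so that these sizes move with it. With the floor at the 40th percentile the differences were 4.17 at day 7 and 1.84 at day 4, and both stayed past the threshold.

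In brown cells Cidea was 2.29 ± 0.63 log2 units higher at day 7 than at day 4 (4.88-fold, limma adjusted p = 0.0165), while 12.1% of all probe sets tested were called. Ucp3 was not called, so 1 of 2 member probe sets rose. The size of the difference was uneven across runs of adjacent array numbers. Among arrays 05 to 08 it was 2.39 on the log2 scale, among arrays 09 to 12 it was 3.20, and between arrays 22 and 19 it was 0.25. Within each run the day 7 arrays lay above the day 4 arrays, as was so, with day 7 higher, for 10.8% of all 8397. With the run as a block the adjusted p was 0.000824, in a fit that called 19.2% of all. Without arrays 09 to 12 the difference was 1.68 and the call was lost (limma adjusted p = 0.129), and it was also lost when white arrays were left out of the fit (0.0904) and without any 1 of the day 7 arrays 07 (0.0563) and 08 (0.0721) or the day 4 arrays 09 (0.0702) and 10 (0.0629). What the array numbers stand for is not stated in the labels.

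In white cells Cidea showed no called difference between day 7 and day 4 (-0.22 ± 0.54 log2 units, limma adjusted p = 0.813), and neither tested member probe set was called, against 19% of all. The change in brown cells minus the change in white cells was 2.51 ± 0.83 for Cidea and missed the threshold (limma adjusted p = 0.286). That comparison called 0.214% of all probe sets, and none of the members, of which Cidea alone had an unadjusted p under 0.05 in the filtered fit (0.00546). Cidea levels ran in the order of brown day 7, brown day 4, white day 4, then white day 7, and the last pair did not differ beyond the spread.

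**Figure D2:**
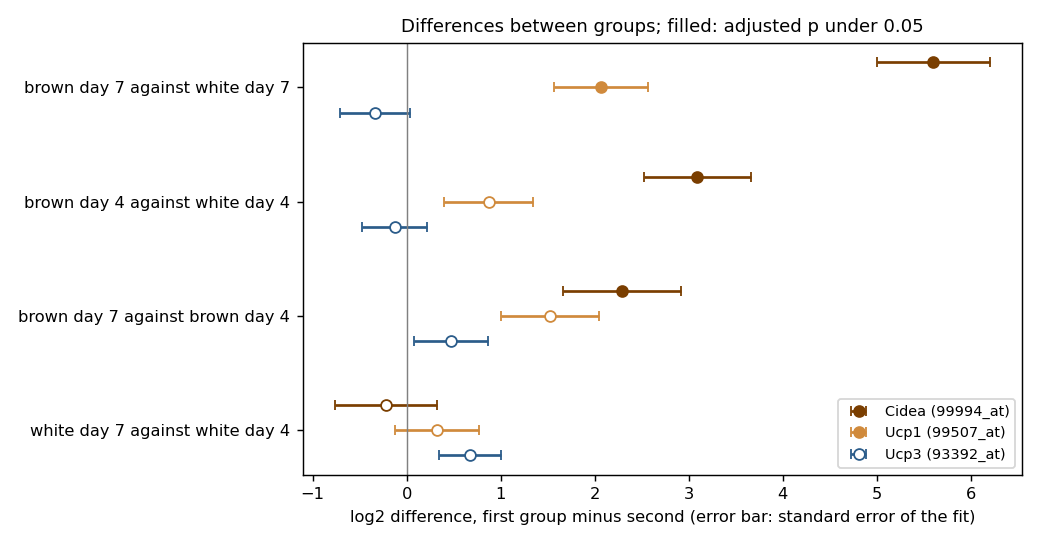
Log2 differences (first group minus second) with the standard error of the fit for Cidea, Ucp1 (99507_at) and Ucp3, with filled points where the adjusted p was under 0.05. Cidea lies furthest right in brown against white at day 7 (5.60), Ucp1 is filled in that comparison only (2.07), and Ucp3 is open throughout.

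Ucp1, the uncoupling protein that makes heat, was dim on most arrays (99507_at). Its signal on brown day 7 arrays was 113 (07), 125 (08), 17.4 (11), 19 (12) and 53.1 (22). On brown day 4 arrays it was 42.6 (05), 23.0 (06), 4.71 (09), 5.41 (10) and 19.4 (19). On white day 7 arrays it ran from 4.5 to 21.3 with a median of 8.71, and on white day 4 arrays from 3.54 to 18.5 with a median of 5.34. The brown day 7 arrays 07, 08 and 22 lay above every array of the other 3 groups, and arrays 11 and 12 lay among them. Of the white arrays, 7 of 8 at day 4 and 3 of 6 at day 7 were at the floor, as were brown day 4 arrays 09 and 10.

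At day 7, Ucp1 was 2.07 ± 0.50 log2 units higher in brown than in white cells in the fit without the filter (4.2-fold, limma adjusted p = 0.00627), which called 16.5% of 12422 probe sets. The size rests on the treatment of low signals: it was 0.99 with the floor at the 40th percentile (limma adjusted p = 0.0183) and 1.03 on log2(signal + 32) (0.0029), both called. Without brown arrays 09 to 12 it was 2.98 (limma adjusted p = 4.62e-05). Without brown arrays 05 to 08 that difference was 1.18 and was no longer called (limma adjusted p = 0.0727). The ratio of the 3' to the 5' Gapdh probe set, a sign of RNA integrity, was 0.889 ± 0.0379 on brown day 7 arrays (SD, n = 5) and 1.36 ± 0.204 on white day 7 arrays (SD, n = 6). With this ratio as a covariate the Ucp1 difference was 2.68 with an adjusted p of 0.119 (limma), and the Cidea difference remained called.

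Between day 7 and day 4 in brown cells, Ucp1 differed by 1.52 ± 0.52 log2 units (2.86-fold) and missed the threshold (limma adjusted p = 0.0905), in a fit that called 7.04% of 12422. Within runs of array numbers the differences were 1.92 (05 to 08), 1.15 (09 to 12) and 1.45 (22 against 19), with no overlap within any run. Such a pattern, with day 7 higher, held for 7.94% of all probe sets without the filter. With the run as a block the difference was 1.52 ± 0.24 and was called (limma adjusted p = 0.000735), where 11.4% of all were called. It was also called on log2(signal + 32) (0.0425) and without day 4 array 05 (0.037), day 7 array 11 (0.0315) or day 7 array 12 (0.0462). It stayed uncalled when white arrays were left out of the fit (limma adjusted p = 0.307), with array weights (0.128) and with median scaling (0.128). The same held without brown arrays 05 to 08 (0.185) or 09 to 12 (0.0521).

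At day 4, Ucp1 was 0.87 ± 0.47 log2 units above white cells in brown cells and was not called (limma adjusted p = 0.262), where 14% of all were. With the floor at the 40th percentile it was 0.11 (limma adjusted p = 1.0), and without brown arrays 05 to 08 it was 0.26 (0.797). Without brown arrays 09 to 12 it was 1.53 and was called (limma adjusted p = 0.0101). In white cells the day 7 minus day 4 difference of Ucp1 was 0.32 ± 0.45 (limma adjusted p = 0.726), in a comparison that called 11.1% of 12422. White arrays 35 and 36 at day 7 had signals of 15.7 and 21.3, against 5.07 and 5.96 on day 4 arrays 33 and 34 of the same run of numbers. All of these lay under the 40th percentile of their own arrays. On the log2 scale that run differed by 1.15, whereas arrays 37 to 40 differed by 0.0 and arrays 41 to 44 by 0.25. The change in brown cells minus the change in white cells was 1.19 ± 0.69 (limma adjusted p = 0.806), where 0.0805% of all were called. Of the 3 neighbouring pairs in its order (brown day 7, then brown day 4, then white day 7, then white day 4), none was called.

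**Figure D3:**
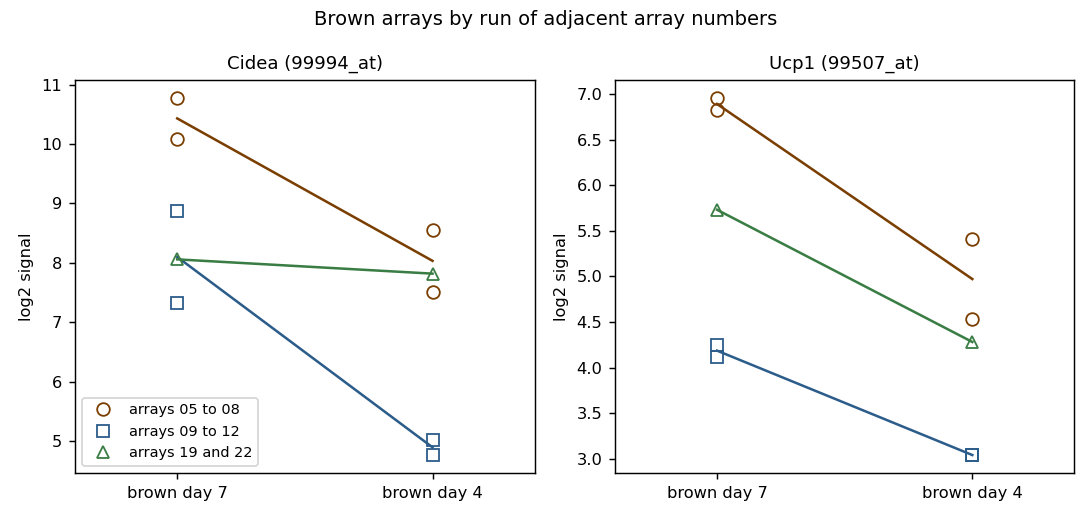
Log2 signal of Cidea and Ucp1 (99507_at) on brown arrays by run of adjacent array numbers, with lines joining the means of day 7 and day 4. Each of the 6 lines is higher at day 7; the smallest step is that of Cidea between arrays 22 and 19 (0.25), and the Ucp1 values of day 4 arrays 09 and 10 coincide at the floor.

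The second Ucp1 probe set, 161422_f_at, did not show these differences. Its suffix marks a probe set that may also bind related sequences. Its mean signal was 18.4 ± 7.02 on brown day 7, 19.2 ± 6.92 on brown day 4, 16.8 ± 7.42 on white day 7 and 11.2 ± 5.9 on white day 4 arrays (SD). It was not called in any comparison, and its brown minus white difference at day 7 was 0.15 ± 0.33 (limma adjusted p = 0.854). The statements on Ucp1 above rest on 99507_at alone.

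Arrays with more Ucp1 (99507_at) signal were also those with more Cidea signal. Over the 10 brown arrays the Pearson correlation of log2 signals was 0.91, and after the group means were taken off it was 0.86. Both come from the same arrays and share their scaling. The mean log2 signal of 21 adipocyte core genes, the lipid storage and hormone genes of any fat cell, ran from 9.01 to 9.70 on brown day 7 arrays and from 7.78 to 8.97 on brown day 4 arrays. Its correlation over the brown arrays was 0.82 with Ucp1 and 0.83 with Cidea, and 0.76 and 0.71 after the group means were taken off. Over all 24 arrays it was 0.39 with Ucp1 and 0.24 with Cidea. Brown day 4 arrays 09 and 10, the lowest in both genes, had core means of 7.78 and 8.05, and array 19 had 8.0 with a Cidea signal of 226. The part of this in the day 7 differences was not tested. In RNA of whole cultures, fewer cells of a type and less RNA per cell cannot be told apart.

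**Figure D4:**
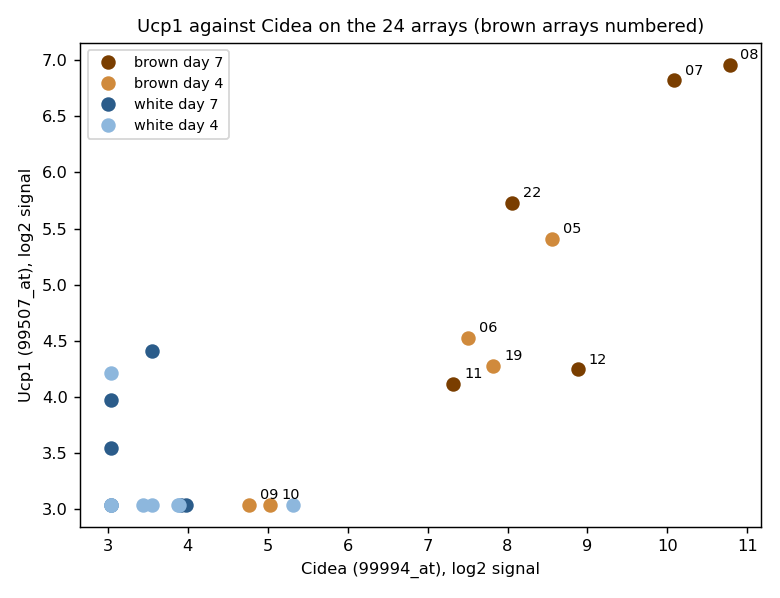
Log2 signal of Ucp1 (99507_at) against Cidea on the 24 arrays, coloured by group, with brown arrays numbered. Arrays 07 and 08 stand at the top right, brown day 4 arrays 09 and 10 lie with the white arrays on the Ucp1 axis, and the correlation over the 10 brown arrays is 0.91.

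Ucp3, which is best known from skeletal muscle, was measured above its floor on all 24 arrays and was not called in any comparison. On brown day 7 arrays its signal was 31.9 (07), 39.9 (08), 29.6 (11), 29.2 (12) and 22.4 (22). On brown day 4 arrays it was 33.2 (05), 9.57 (06), 24.1 (09), 18.3 (10) and 34.8 (19). White day 7 arrays ran from 23.4 to 49.6 with a median of 39.5, and white day 4 arrays from 9.56 to 49.6 with a median of 26.6. All 4 groups overlapped. The order of levels was white day 7, brown day 7, white day 4 and brown day 4, with no neighbours told apart. The brown minus white difference was -0.34 ± 0.37 at day 7 (limma adjusted p = 0.558) and -0.13 ± 0.35 at day 4 (0.843). The day 7 minus day 4 difference was 0.47 ± 0.39 in brown cells (limma adjusted p = 0.503) and 0.67 ± 0.33 in white cells (0.16). A missed threshold does not show that the levels were alike.

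Dio2 and Ppargc1a, the partners of Ucp1 whose start regions are printed above, stayed dim. Dio2 averaged 10.8 ± 5.08 on brown day 7, 13.6 ± 6.1 on brown day 4, 19.7 ± 5.99 on white day 7 and 13.6 ± 8.85 on white day 4 arrays (SD). Its highest single signal was 28.2, on white day 4 array 38, and 6 of 24 arrays were at the floor. Its brown minus white difference at day 7 was -0.71 ± 0.34 (limma adjusted p = 0.18). Ppargc1a averaged 6.9 ± 4.21 on brown day 7, 6.96 ± 3.51 on brown day 4, 9.77 ± 3.49 on white day 7 and 4.79 ± 3.69 on white day 4 arrays (SD). It was at the floor on 14 of 24 arrays, and its highest signal was 13.9, on white day 7 array 43. Neither gene was called in any comparison without the filter. In the fit without the filter, 2 of 6 member probe sets were called in brown against white at day 7, Cidea and Ucp1. The same comparison called 16.5% of all 12422 probe sets.

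The genes whose log2 signals were most like those of Cidea over the 24 arrays were Idh3a (r = 0.93) and Sdhd (0.93), both of the citric acid cycle, and Rspo2 (0.92), a secreted Wnt agonist. After the group means were removed they were Cox8b (0.80), a cytochrome oxidase subunit, Uck1 (0.77), a uridine-cytidine kinase, and Idh2 (0.71). For Ucp3 they were Myo7a (0.76), Zkscan5 (0.66) and Atf5 (0.63), and after removal Ckb (0.80), Eef1b2 (0.78) and Myo7a (0.75). For Ucp1 (99507_at), which was added after its values were seen, they were Acaa2, Ndufs3 and Alas1 (0.85 each), and after removal Cox8b (0.73), Uck1 (0.72) and Tdo2 (0.71). Ucp1 was tied at the floor on 12 of the 24 arrays, so that its correlations rest largely on the others. Cox8b and Uck1 thus stood in the lists of both Cidea and Ucp1, over arrays that the lists share.

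Among other genes of the thermogenic programme, 18 of 30 listed were on the array, and 13 of these passed the filter and were tested. Zic1 passed through the brown arrays alone, in which it was high. The rest of the 18 were dim and are not in the counts below. Of these, named after their values were seen, Elovl3, Slc27a2, Bmp8b and Ntrk3 had higher day 7 means in white than in brown cells. Kcnk3 had a lower one. At day 7, 8 of the 13 were higher in brown than in white cells and 0 were lower, with a median of 0.86 log2 units, against 13.2% higher and a median of 0.00 over all 6282 genes. They included Cox7a1, a muscle-type cytochrome oxidase subunit (3.89 ± 0.53, limma adjusted p = 4.39e-06), and the brown precursor markers Lhx8 and Zic1, both transcription factors. The list, with these markers in it, was chosen with earlier results of these data known. Its counts are thus a description and carry no weight of their own. None of the 6 white day 7 arrays had a Zic1 signal over the floor, so that its difference is a bound of at least 3.04 log2 units (mean signals of 68.1 in brown and 2.41 in white cells, limma adjusted p = 2.02e-10). Lhx8 was at the floor on 4 of those 6 arrays, and its difference of 3.50 ± 0.33 moves with the floor. At day 4, 5 were higher and 0 lower, against 11.7% and 12.8% over all genes. Among them were Zic1, at least 3.46 higher with all 8 white arrays at the floor, and Lhx8 (3.62 ± 0.31), with 4 of 8 at the floor. Between day 7 and day 4 in brown cells 4 rose and 0 fell, against 6.46% and 6.49% over all genes: Cox8b (2.68 ± 0.44), Cox7a1 (2.53 ± 0.55), the fatty acid binding protein Fabp3 (1.85 ± 0.46) and the carnitine carrier Slc25a20 (0.77 ± 0.18). The list's median there was -0.14, against 0.02 over all genes. In white cells 1 of the 13 rose, Cox8b (2.05 ± 0.37, limma adjusted p = 0.000579), and 0 fell, against 9.03% and 10.5% over all genes.

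**Figure D5:**
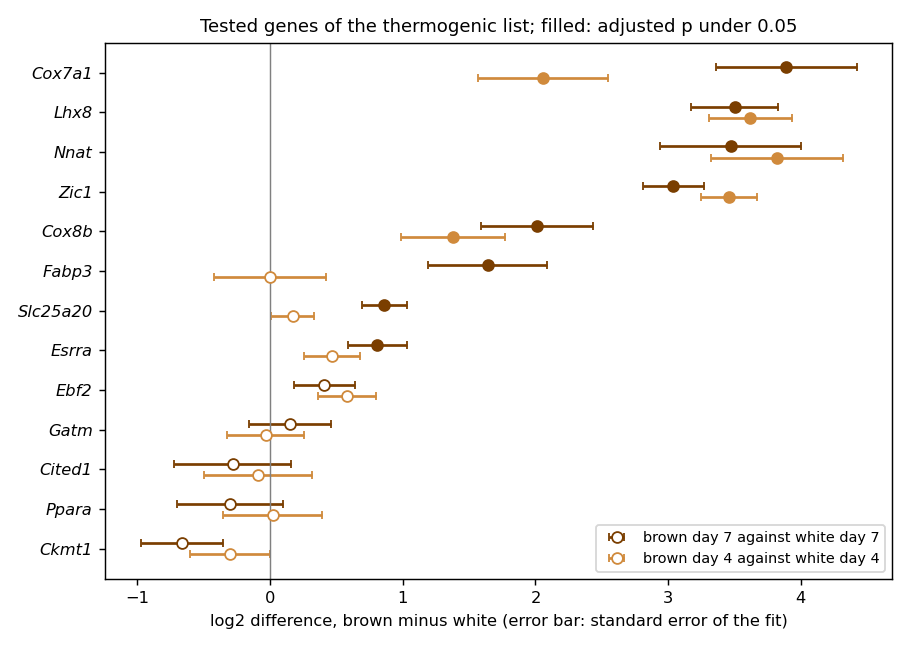
Log2 differences (brown minus white, with the standard error of the fit) of the 13 tested genes of the thermogenic list at day 7 and day 4, filled where the adjusted p was under 0.05. Filled points number 8 at day 7 and 5 at day 4, and none lies left of 0.

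The receptor and cAMP genes upstream of Ucp1 were called in both directions. Of 24 tested, 2 were higher and 4 lower in brown than in white cells at day 7, against 13.2% and 12.3% over all genes, so that these counts are no result about the list. Among them were Pde4b, which breaks down cAMP (1.80 ± 0.41), and Adcy4, which makes it (1.14 ± 0.18), both higher, and the coactivator Crebbp (-2.85 ± 0.58) and the cyclase Adcy9 (-1.02 ± 0.27), both lower. Crebbp was at the floor on 2 brown day 7 arrays, so that its difference moves with the floor. With quantile normalization the split was 2 higher and 7 lower, and with median scaling 2 higher and 3 lower. At day 4, 2 were higher and 2 lower, against 11.7% and 12.8% over all genes, led by the alpha-adrenergic receptor Adra1b (-1.71 ± 0.33). In brown cells 1 of 24 rose at day 7, against 6.46% of all genes, the lipase gene Lipe (1.10 ± 0.30, limma adjusted p = 0.0169), which also rose in white cells (1.47 ± 0.26), where 4 rose and 2 fell, against 9.03% and 10.5% of all genes.

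Of the thyroid hormone axis, into which Dio2 feeds, 7 genes were tested. Thrsp, a lipogenic gene that answers to thyroid hormone, rose by day 7 in brown (3.42 ± 0.48) and in white cells (3.61 ± 0.41). In brown against white cells the nuclear receptor coactivator Ncoa1 was lower at day 7 (-1.0 ± 0.34) and at day 4 (-1.21 ± 0.32). Ncoa3 was also lower at day 4 (-0.56 ± 0.20), where quantile normalization and median scaling left 1 lower. Of the 7, 0 were higher, against 13.2% of all genes at day 7 and 11.7% at day 4. Lower were 1 at day 7 and 2 at day 4, against 12.3% and 12.8%. The list is too short for these counts to be a result about it. Of 20 tested partners and targets of Ppargc1a, 2 were higher and 3 lower in brown cells at day 7, near the 13.2% and 12.3% over all genes. Nrip1, a corepressor known to hold down Ucp1 and Cidea in mouse white fat, was lower (-1.70 ± 0.31, limma adjusted p = 0.000246), and Pparg, the master regulator of fat cells, was higher (0.91 ± 0.22). Cebpb, which is also on the adipocyte core list, was lower (-0.92 ± 0.14, limma adjusted p = 2.18e-05), as was Ncoa1. At day 4, 2 were higher and 4 lower, against 11.7% and 12.8% over all genes, with Nrip1 again lower (-1.24 ± 0.30) and Pparg higher (1.17 ± 0.20).

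Cidec, the CIDE relative of Cidea that enlarges lipid droplets, ran the other way between cell types. It was lower in brown than in white cells, by -2.05 ± 0.54 log2 units at day 7 (limma adjusted p = 0.00593) and -1.85 ± 0.51 at day 4 (0.00902). It rose by day 7 in brown (1.95 ± 0.56) and in white cells (2.15 ± 0.48). Of the 9 tested genes of the CIDE, DFF and droplet coat list, 4 rose and 0 fell by day 7 in each cell type, against 6.46% of all genes that rose in brown cells and 9.03% in white cells. With median scaling 3 rose in brown cells. Those called in brown cells were Cidec, Pnpla2, Lipe and Abhd5, and those in white cells Cidec, Plin4, Pnpla2 and Lipe. Between cell types 1 was higher and 1 lower at day 7, against 13.2% and 12.3% of all genes.

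In the mitochondrial carrier family, to which the uncoupling proteins belong, 4 of 16 tested genes were higher and 0 lower in brown than in white cells at each day, against 13.2% of all genes higher at day 7 and 11.7% at day 4. The day 4 count was 3 with quantile normalization and 5 with median scaling. At day 7 they were the ADP/ATP carrier Slc25a5 (0.97 ± 0.18), Slc25a20 (0.86 ± 0.17), Slc25a39 (0.74 ± 0.15) and Mtch2 (0.37 ± 0.12), and the list's median was 0.33. In brown cells 1 of the 16 rose by day 7 and 0 fell, against 6.46% and 6.49% of all genes.

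Markers of other cell types also differed between the cultures, where 13.2% of all genes were higher and 12.3% lower in brown than in white cells at day 7. Of 8 tested endothelial markers, 4 were higher and 1 lower there. The lower one was Flt1 (-1.22 ± 0.39, limma adjusted p = 0.0223). Pecam1 was not called, with means of 57.2 ± 17.3 on brown day 7 and 74.5 ± 24.4 on white day 7 arrays (SD). Flt1 and Pecam1 were named after their values were seen. Sox18 averaged 307 ± 50.6 on brown day 7, 154 ± 48.4 on brown day 4, 28.1 ± 16.3 on white day 7 and 54.9 ± 19.2 on white day 4 arrays (SD). The other 3 that were higher at day 7 were Emcn (2.78 ± 0.36 log2 units), Tie1 (2.68 ± 0.27) and Cdh5 (2.59 ± 0.41), and all 4 were also higher at day 4. Between day 7 and day 4 in brown cells Tie1 rose (0.95 ± 0.28, limma adjusted p = 0.0273), while Sox18 (1.03 ± 0.36, 0.0573), Cdh5 (1.23 ± 0.43, 0.06) and Emcn (0.81 ± 0.38, 0.175) missed the threshold. The change of Sox18 in brown minus that in white cells was 2.13 ± 0.47 (limma adjusted p = 0.0477), a call that quantile normalization and median scaling ended. Summed signals of the endothelial list overlapped, at 1698 to 2286 in brown day 7, 1755 to 2994 in brown day 4, 1418 to 1872 in white day 7 and 1368 to 2059.6 in white day 4 arrays. Eng alone averaged 1014 on brown day 7, 1647 on brown day 4, 1299 on white day 7 and 1316 on white day 4 arrays. Of 17 skeletal muscle markers, 5 were higher at day 7, led by Mb (2.29 ± 0.44) and Tnni1 (1.59 ± 0.33), and 1 was lower, Des (-1.56 ± 0.44), with sums of 1631 to 1950.5 in brown day 7, 2307 to 2916 in brown day 4, 952 to 1539 in white day 7 and 956 to 1388 in white day 4 arrays. Of 13 tested macrophage markers, 0 were higher and 6 lower at day 7: Tyrobp (-1.72 ± 0.53), Lyz2 (-1.56 ± 0.46), C1qa (-1.52 ± 0.49), C1qc (-1.09 ± 0.34), and Csf1r (-0.96 ± 0.23) and Cd14 (-0.63 ± 0.15), the last pair named after their values were seen. The list had sums of 842 to 1110.1 in brown day 7, 643 to 749 in brown day 4, 1105 to 1756 in white day 7 and 807 to 2125 in white day 4 arrays. Adgre1, Itgam and Mrc1 of that list did not pass the filter, and no marker had a signal of 0. Of the adipocyte markers, Adipoq was bright in all 4 groups, at 5544 ± 621 in brown day 7 and 2723 ± 1452 in brown day 4 arrays, and 5643 ± 779 in white day 7 and 2048 ± 862 in white day 4 arrays (SD). Of 21 tested adipocyte core genes, 2 were higher and 4 lower in brown than in white cells at day 7. Higher were Pparg (0.91 ± 0.22) and Aqp7 (0.89 ± 0.22), and the lower ones were led by Cidec (-2.05 ± 0.54) and Cebpb (-0.92 ± 0.14). Retn was at the floor on 2 brown day 4 arrays and Cidec on 1. The part of other cells in the differences of Cidea and Ucp1 was not tested. Brown arrays carry lower numbers than white ones throughout, so handling and cell type cannot be told apart.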

How the data were processed

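The intensities deposited by the authors are linear MAS5 signals, per the submitters' processing notes, for 12488 probe sets on 24 arrays. No MAS5 version or genome build is given in the sources used here. Arrays were scaled to a common trimmed mean (2% trim, 150), signals below the 20th percentile (8.21) were raised to it, and log2 was taken. The filter kept 8397 probe sets, with 66 controls left out. The alternative without it held 12422, and it gave the differences of dim members. Group means were fitted with limma 3.58.1 in R 4.3.3 with an intensity trend and 20 residual degrees of freedom. Tests were two-sided, with the Benjamini-Hochberg threshold at 0.05. Precision is limited by the number of arrays. A value after ± is the fit's standard error, or the SD where so marked.

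The platform annotation, which can be old, names exactly 1 gene for 10855 probe sets. For a gene on a list, the brightest tested probe set stood for it. Genes are named as members, as the 3 most correlated with a member, or as up to 4 with the largest called differences per list and comparison. The erythrocyte and lymphocyte lists (2 and 3 tested genes) had 0 calls between groups. Members and lists were chosen with earlier results of these data known. The fit was tested on simulated data. Alternatives changed the floor, filter, scaling, samples and covariates.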

Additional observations from a re-analysis of the deposited data

Results flagged for a closer look

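Of 24 groups of arrays of member probe sets, 3 held 1 array far from the others of its group by Dixon's test at the 95% level on log2 signals with the floor, which chance gives in about 1 of 20 groups where values are not tied. All 7 other arrays of Ucp1, 6 of the 7 others of Ppargc1a and 3 of the 7 others of Cidea were tied at the floor, so this rate applies to none of the 3. All 3 were white day 4 arrays. Cidea (99994_at) had a signal of 39.8 on array 38, where the other 7 arrays lay between 4.29 and 14.9. Without array 38 the white day 7 minus day 4 difference of Cidea was 0.015 log2 units, against -0.22 with it, with no call in either. Ucp1 (99507_at) had 18.5 on array 51, where the others lay between 3.54 and 6.32 and thus at the floor. Ppargc1a (102240_at) had 11.3 on array 37, where the others lay between 1.07 and 8.59. The Cidea value lay above the 40th percentile of array 38 (31.5). The Ucp1 and Ppargc1a values lay under those of arrays 51 (24.3) and 37 (32).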

How the results depend on the processing

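By replicate number, no paired analysis was possible because no array number stands in more than 1 group, and runs of adjacent numbers were fitted as a block in its place (Ucp1 in brown day 7 against day 4, adjusted p of 0.000735 with it and 0.0905 without). The direction of Cidea held under every alternative run in brown against white at day 7 (3.73 to 6.20 log2 units), at day 4 (1.79 to 4.30) and in brown day 7 against day 4 (1.68 to 2.74). In the last, 6 alternatives ended the call. Ucp1 (99507_at) ran from 0.99 to 2.98 log2 units in brown against white at day 7, from 0.11 to 1.53 at day 4 and from 0.81 to 1.88 in brown day 7 against day 4. For Cidea, Ucp3 and Ucp1 (99507_at), directions turned only in differences that were called under no alternative: Ucp1 in white day 7 against day 4 with the Gapdh ratio as a covariate (-0.22), Cidea there when 1 array was left out (-0.33 to 0.015, above 0 without array 38), and Ucp3 in brown against white at day 4 without brown arrays 05 to 08 (0.065) and when 1 array was left out (-0.31 to 0.17, above 0 without brown array 06 or white array 38).

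Over all probe sets, brown day 7 against day 4 (1012 called) gave 1665 with array weights, 1612 with runs as a block, 168 without brown arrays 09 to 12 and 455 without 05 to 08, and 668 to 1165 when 1 array was left out. Member probe sets called there (1) fell to 0 with only the groups compared and without arrays 09 to 12, with 0 to 1 over left-out arrays, and neighbouring pairs told apart (2) fell to 1 under the same settings, with 1 to 2 over left-out arrays. White day 7 against day 4 (1595) gave 58 with the Gapdh ratio as a covariate and 1053 without arrays 45 and 51. Brown against white at day 4 (1933) gave 1184 without arrays 09 to 12 and 1099 without 05 to 08. At day 7 (2112) this comparison gave 303 with the Gapdh ratio and 1267 without 05 to 08, and 2 member probe sets without the filter. The difference of the changes (18) gave 35 with the higher floor, 10 with no floor above 1, 6 with median scaling, 45 with array weights, 11 without an intensity trend, 5 with the Gapdh ratio, 48 with runs as a block, 10 without the filter, 8 with the stricter filter, 4 without 09 to 12, 4 without 05 to 08 and 4 to 23 with 1 array left out. The causes were not tested. Omitting brown runs was chosen after seeing the data. MAS5 values near background limit what the dim members can show.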
